A study of Homo sapiens with 12 samples.

Results

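The comparison sets MDA-MB-231 cells given an siRNA against FECH together with 5-aminolevulinic acid (5-ALA) against MDA-MB-231 cells given 5-ALA alone, with 3 arrays in each group, 6 of the 12 arrays of the series. The arrays were chosen by their treatment label: 0.1 mM 5-ALA plus 15 nM of the FECH siRNA in the first group, and 0.1 mM 5-ALA without any siRNA in the second. MDA-MB-231 is an established human breast cancer cell line of the triple-negative, mesenchymal kind, and all 6 samples carry the same cell line label and the same 5-ALA dose. The groups therefore differ both in having been exposed to an siRNA and in the gene that siRNA targets, and within this contrast these cannot be told apart. The 3 arrays with 15 nM of a control siRNA (AllStar) plus 0.1 mM 5-ALA are set beside the 2 groups for that reason, and 3 untreated arrays are given as levels. The labels number the samples in 3 runs that each hold 1 array of every group, and each FECH siRNA array was compared with the 5-ALA only array of its own run. Whether the samples of a group were separate cultures is not stated in the labels, and the p-values speak only of the scatter among these samples, which may be technical.

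Heme is made from glycine and succinyl-CoA in a pathway that starts and ends in the mitochondrion. ALAS1 makes 5-ALA in the first and rate-limiting step, and heme normally lowers ALAS1, so that 5-ALA given from outside bypasses this control. Ferrochelatase, the product of FECH, completes heme by placing ferrous iron in the ring of protoporphyrin IX. When ferrochelatase is slow, protoporphyrin IX, which is fluorescent and sensitises cells to light, accumulates, the basis of 5-ALA fluorescence diagnosis and photodynamic therapy. Free heme binds and inactivates the repressor BACH1, and the heme oxygenase gene HMOX1 is among the genes that BACH1 represses.

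The FECH siRNA was a single sequence of 19 nucleotides, and its strands are printed here because every value of the FECH siRNA group rests on this 1 reagent. Bases 2 to 8 of each strand, the seed if that strand is loaded into Argonaute, are in capitals, and 9 of the 19 bases are G or C.
siRNA as the submitters wrote it: gAAUAUCCucuugguuccg
reverse complement: cGGAACCAagaggauauuc
Of 2370 human mature miRNAs in the RefSeq table used, 0 carry either run of 7 bases at positions 2 to 8. Matches of these bases to other transcripts were not analysed here.

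Values are log2 of the deposited RMA signal, and fold changes and differences are FECH siRNA over 5-ALA only unless another pair is named. A gene passed the test when its limma adjusted p (Benjamini-Hochberg over 12151 genes) was below 0.05. The array medians lay between 7.25 and 7.34. Between 10 and 61 genes of a FECH siRNA array, and between 28 and 82 genes of a 5-ALA only array, differed by over 0.5 from the average of their group's other 2 arrays. Untreated replicate 3, which enters the shared estimate of the spread, had 416 such genes. Of the basal and mesenchymal markers 12 of 13 exceeded 7.29, the median over the probe sets, on all 6 arrays, with VIM at 12.31 to 12.43 with FECH siRNA against 12.26 to 12.35 with 5-ALA only. Of 14 luminal markers 7 exceeded it on all 6 arrays, among them ERBB2, the receptor HER2, at 9.20 to 9.25 with FECH siRNA against 9.28 to 9.44 with 5-ALA only, and GATA3 at 8.86 to 8.94 with FECH siRNA against 8.69 to 8.92 with 5-ALA only. The oestrogen and progesterone receptor genes lay below that level, ESR1 at 6.36 to 6.51 with FECH siRNA against 6.31 to 6.38 with 5-ALA only, and PGR at 5.62 to 5.75 against 5.64 to 5.72. PTPRC, the common leukocyte antigen, lay between 4.96 and 5.02 with FECH siRNA and between 4.95 and 4.98 with 5-ALA only.

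FECH itself, the targeted gene, fell. Its log2 signal (probe set 8023466, chromosome 18) was 6.55, 6.62 and 6.43 with FECH siRNA in runs 1, 2 and 3, against 8.36, 8.60 and 8.53 with 5-ALA only. All FECH siRNA arrays lay well below all 5-ALA only arrays. The group means were 6.53 ± 0.09 with FECH siRNA and 8.50 ± 0.12 with 5-ALA only (SD, n = 3 each), a log2 difference of -1.97 (SE 0.06, limma adjusted p = 7.2e-09) that leaves 25.6% of the 5-ALA only signal. An exact two-sided permutation test of 3 against 3 values gave p = 0.1, and one of the 3 within-run differences gave p = 0.25, each the smallest p the design allows. The mean with FECH siRNA is below 7.29, where nothing shows it to exceed background, and the value is a ratio of signals. Control siRNA left FECH at 8.55 ± 0.05 against 8.50 ± 0.12 with 5-ALA only (SD, n = 3 each; log2 difference 0.05, limma adjusted p = 0.635). The signal is an average over each culture, so fewer cells with the transcript and less transcript per cell cannot be told apart, here and for every gene that follows.

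HMOX1, the inducible heme oxygenase that breaks heme down to biliverdin, iron and carbon monoxide, fell 4.08-fold. Its log2 signal was 8.61, 8.69 and 8.69 with FECH siRNA, against 10.40, 10.76 and 10.91 with 5-ALA only. The groups were far apart, and the untreated arrays, at 8.51, 8.77 and 8.76, spanned the FECH siRNA values. The log2 difference was -2.03 (SE 0.10, limma adjusted p = 4.1e-08). With control siRNA HMOX1 was at 10.33, 10.12 and 10.55, a log2 difference from 5-ALA only of -0.36 (limma adjusted p = 0.0351), and FECH siRNA against control siRNA gave -1.67 (limma adjusted p = 1.6e-07). ALAS1 moved the other way. Its log2 signal was 9.90, 9.88 and 9.85 with FECH siRNA, against 8.65, 8.61 and 8.86 with 5-ALA only, a 2.25-fold rise (log2 difference 1.17, SE 0.10, limma adjusted p = 2e-06). The groups did not overlap, and the untreated arrays lay between them at 9.34, 9.29 and 9.75. Control siRNA gave 8.89, 8.61 and 8.73, a log2 difference from 5-ALA only of 0.04 (limma adjusted p = 0.827).

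**Figure D1:**
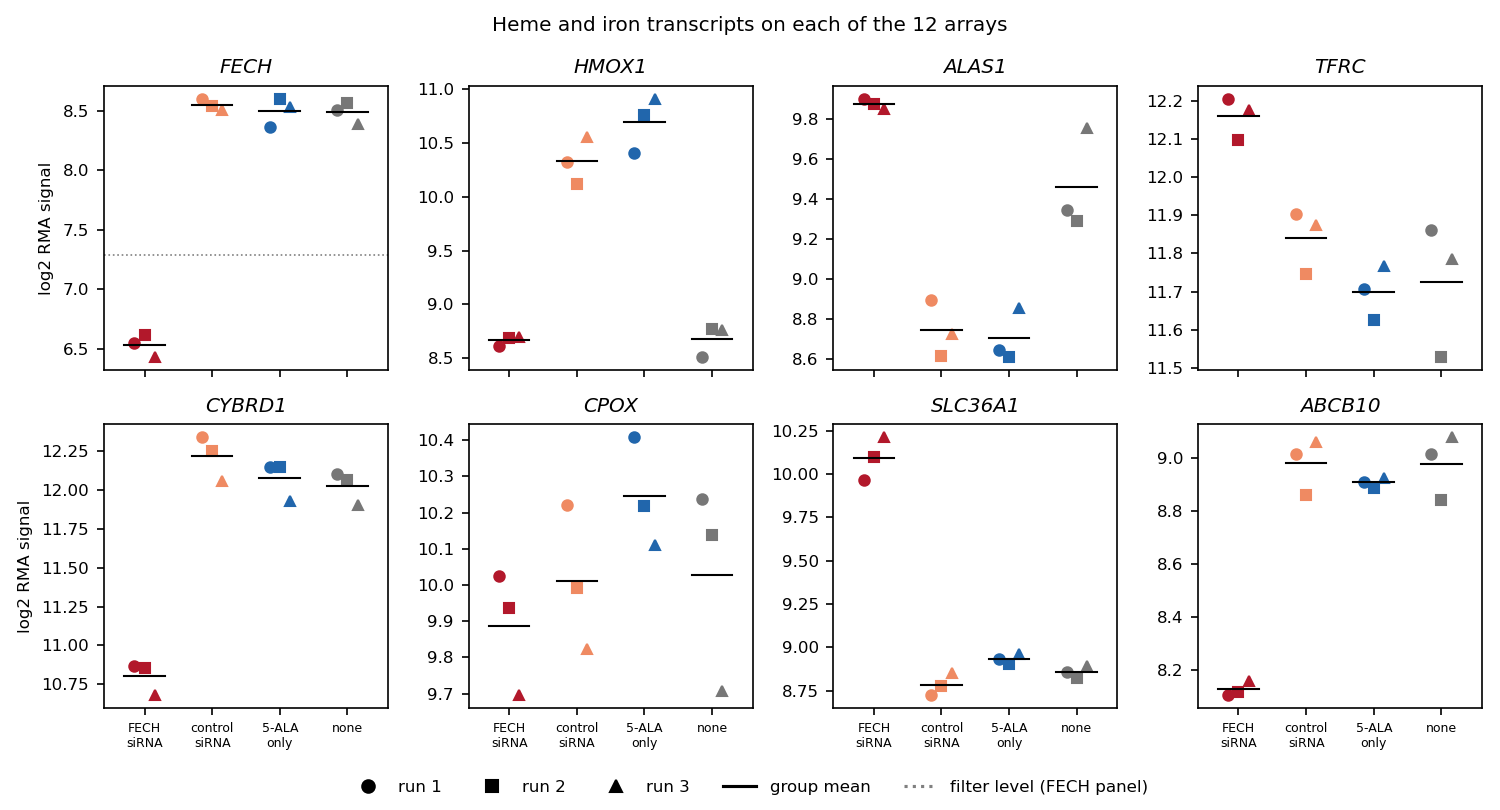
Log2 RMA signal (y axis, a separate scale in each panel) of 8 transcripts of heme and iron metabolism on all 12 arrays, by treatment group (x axis), with the run as the marker shape and the group mean as a line. With FECH siRNA, FECH sits below the dotted filter level of 7.29, HMOX1 sits beside the untreated arrays at 8.61 to 8.69, and ALAS1 sits above all other arrays at 9.85 to 9.90.

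Between ALAS1 and FECH the pathway changed little. Of 9 heme biosynthesis genes 7 were bright enough to test, and 1 rose and 4 fell, 71.4% of the list beside 45.6% of all genes tested. The list's median log2 difference was -0.19, beside 0.02 over all genes. CPOX, which oxidises coproporphyrinogen in the mitochondrial intermembrane space, was at 10.03, 9.94 and 9.70 with FECH siRNA, against 10.41, 10.22 and 10.11 with 5-ALA only (log2 difference -0.36, SE 0.06, limma adjusted p = 0.00061). UROS, which closes the linear tetrapyrrole into a ring, fell by 0.19 on the log2 scale (limma adjusted p = 0.0092). For CPOX the groups did not overlap, whereas the UROS values overlapped between groups and were lower with FECH siRNA within each run. Both calls are weak. That of CPOX ended without the pairing by run (adjusted p = 0.0599), and that of UROS without the pairing (0.393) and without each of the 3 runs in turn (0.0556 or above). ALAD, which joins 2 molecules of 5-ALA, had a log2 difference of -0.14 (limma adjusted p = 0.101), and UROD had 0.10 (limma adjusted p = 0.139). ALAD passed the test with array weights or without 5-ALA only replicate 1, and UROD with array weights.

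The next list joins proteins that carry or bind porphyrins, heme and their precursors with heme-degrading enzymes and with BACH1 and CLPX. Its members changed in both directions. Of 23 tested, 8 rose and 7 fell, 65.2% of the list beside 45.6% of all genes, with a median log2 difference of 0.08. SLC36A1, a proton-coupled amino acid transporter that can carry 5-ALA into cells, was at 9.96, 10.10 and 10.21 with FECH siRNA, against 8.93, 8.90 and 8.96 with 5-ALA only. That is a 2.24-fold rise with no overlap (log2 difference 1.16, SE 0.05, limma adjusted p = 2.9e-08), and control siRNA differed from 5-ALA only by -0.15 on the log2 scale (limma adjusted p = 0.0978). ABCB10, a transporter of the inner mitochondrial membrane that heme synthesis depends on, was at 8.11, 8.12 and 8.16 with FECH siRNA, against 8.91, 8.89 and 8.93 with 5-ALA only, 1.72-fold lower (log2 difference -0.78, SE 0.06, limma adjusted p = 6.4e-07). Both groups of 3 were tight, and they lay far apart. The heme transporter SLC48A1 rose by 0.60 on the log2 scale (limma adjusted p = 0.0003), and CLPX, the mitochondrial unfoldase that acts on ALAS enzymes, fell by 0.53. BACH1 had log2 signals of 9.85, 9.98 and 9.97 with FECH siRNA, against 9.69, 9.67 and 9.70 with 5-ALA only (log2 difference 0.25, SE 0.07, limma adjusted p = 0.013). Control siRNA lowered BACH1 against 5-ALA only, by a log2 difference of -0.29 (limma adjusted p = 0.0199). The BACH1 call in FECH siRNA ended without FECH siRNA replicate 3, without 5-ALA only replicate 2 or without run 2, with adjusted p of 0.0693 to 0.141. ABCG2, a plasma membrane exporter of porphyrins, had log2 signals of 7.86, 7.59 and 7.69 with FECH siRNA, against 7.65, 7.55 and 7.69 with 5-ALA only, and the groups overlapped (log2 difference 0.08, limma adjusted p = 0.634).

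Among 18 iron handling genes 2 rose and 7 fell, 50% of the list (median log2 difference -0.05). TFRC, the transferrin receptor, was at 12.21, 12.10 and 12.18 with FECH siRNA, against 11.71, 11.63 and 11.77 with 5-ALA only, 1.38-fold higher (log2 difference 0.46, SE 0.06, limma adjusted p = 4.2e-05). No array of one group reached the other. The other gene that rose was SLC39A8, a metal importer, by 0.51 on the log2 scale, beside 0.31 with control siRNA. CYBRD1, a ferric reductase, was at 10.87, 10.86 and 10.68 with FECH siRNA, against 12.15, 12.15 and 11.93 with 5-ALA only, 2.41-fold lower (log2 difference -1.27, SE 0.05, limma adjusted p = 9.3e-09). ACO1, the cytosolic aconitase that doubles as an iron regulatory protein when it lacks its iron-sulfur cluster, fell by 0.59 on the log2 scale (limma adjusted p = 1e-05). IREB2, the second iron regulatory protein, fell by 0.48, beside a fall by 0.33 with control siRNA, and SLC11A2, which carries ferrous iron out of endosomes, fell by 0.50. Of 22 genes for iron-sulfur cluster assembly 6 rose and 1 fell, 31.8% of the list and below the 45.6% of all genes. MMS19, of the cytosolic assembly machinery, was at 10.15, 10.12 and 10.13 with FECH siRNA, against 9.69, 9.59 and 9.69 with 5-ALA only, without overlap (log2 difference 0.48, SE 0.06, limma adjusted p = 3.9e-05). CIAPIN1, of the same machinery, rose by 0.29, and so did the mitochondrial chaperone HSPA9 (0.29), a call that ended without run 2 (adjusted p = 0.055).

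Across all genes the contrast was wide. Of 12151 genes 5545 passed the test, 45.6%: 2961 rose (24.4%) and 2584 fell (21.3%). Changes over 1.5-fold were fewer, 1046 genes (8.61%), and changes over 2-fold were found for 254 genes (2.09%), of which 96 rose (0.79%) and 158 fell (1.3%). The values of the 2 groups did not overlap for 6075 genes (50%), and all 3 within-run differences had 1 sign for 8096 genes (66.6%). In the same fit and against the same 5-ALA only arrays, control siRNA gave 1652 genes past the test (13.6%), of which 737 rose (6.07%) and 915 fell (7.53%), and 7 (0.0576%) changed over 2-fold. That count was 586 without run 1 and 304 without run 2, and between 821 and 2186 without single arrays, among them each control siRNA array (821 to 1054) and 5-ALA only replicates 2 (892) and 3 (835). With every array centred on its median the share of rises among the control siRNA calls was 24.9%, beside 44.6% as deposited. FECH siRNA against control siRNA gave 5683 genes past the test (46.8%), of which 3059 rose (25.2%) and 2624 fell (21.6%), and 3698 without run 2.

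**Figure D2:**
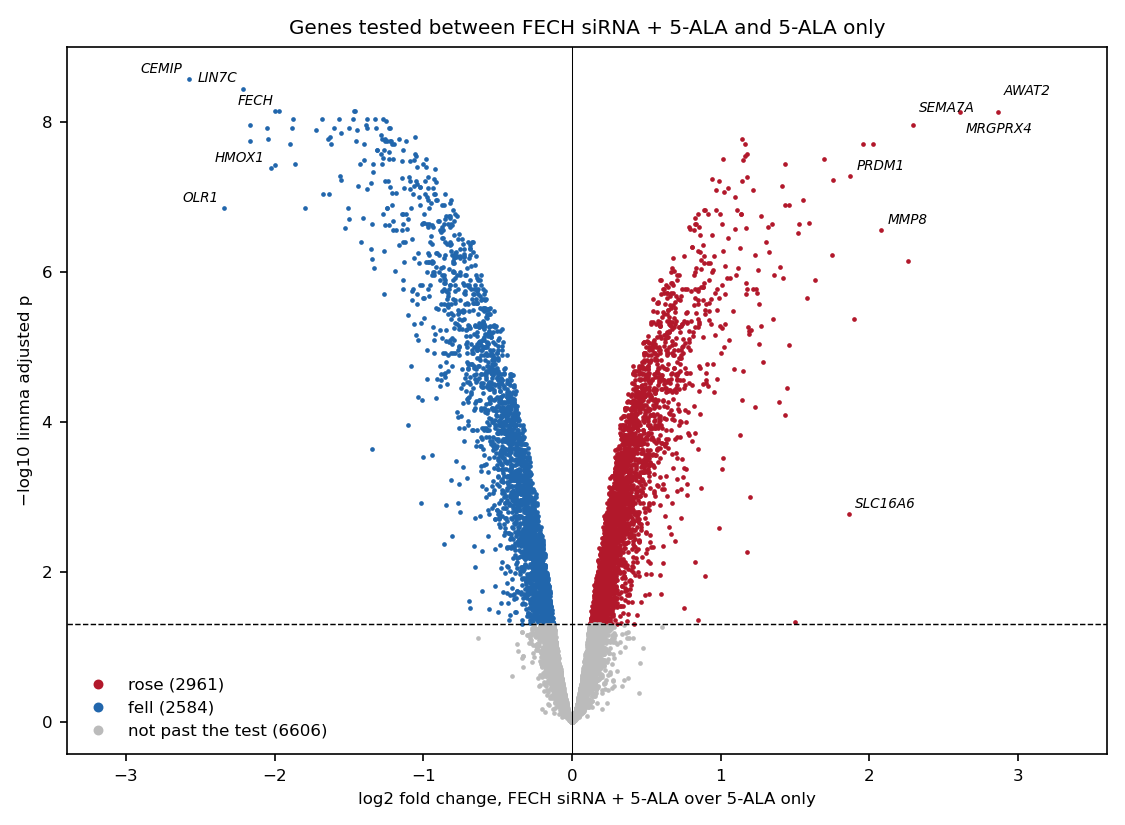
Log2 fold change of FECH siRNA + 5-ALA over 5-ALA only (x axis) against -log10 of the limma adjusted p (y axis), 1 point per gene tested, with the dashed line at 0.05. Red points rose (2961), blue points fell (2584) and grey points did not pass the test. The points farthest out are AWAT2 at 2.86 and CEMIP at -2.58.

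The largest rise was that of AWAT2, an acyltransferase that makes wax esters. It was at 9.58, 9.66 and 9.40 with FECH siRNA, against 6.68, 6.76 and 6.61 with 5-ALA only, 7.28-fold higher (log2 difference 2.86, SE 0.10, limma adjusted p = 7.4e-09). MRGPRX4, a G protein-coupled receptor known from human sensory neurons as a receptor for bile acids and bilirubin, followed. It was at 8.27, 8.36 and 8.41 with FECH siRNA, against 5.95, 5.68 and 5.58 with 5-ALA only, 6.1-fold higher (log2 difference 2.61, SE 0.09, limma adjusted p = 7.4e-09). SEMA7A, a semaphorin anchored to the cell surface that binds integrins, was at 13.18, 13.16 and 13.35 with FECH siRNA, against 10.83, 10.88 and 11.09 with 5-ALA only, 4.91-fold higher (log2 difference 2.29, SE 0.09, limma adjusted p = 1.1e-08). In each of these 3 genes the groups stood far apart, and none of the 3 passed the test with control siRNA against 5-ALA only (limma adjusted p of 0.0983, 0.353 and 0.0504). AWAT2 and MRGPRX4 were below 7.29 on all 5-ALA only arrays, so their folds are ratios to a signal that may be background. The same holds for the 5-ALA only means of MMP8, MPP4, PTPN22 and MMP3.

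MMP8, the collagenase of neutrophils, was at 8.98, 9.12 and 9.45 with FECH siRNA, against 6.61, 6.84 and 7.87 with 5-ALA only, where replicate 3 stood higher than the other arrays of its group (log2 difference 2.08, SE 0.13, limma adjusted p = 2.8e-07). Its neighbour in function MMP3, stromelysin 1, was at 8.87, 8.82 and 8.61 with FECH siRNA, against 6.99, 7.07 and 7.35 with 5-ALA only (log2 difference 1.64, SE 0.13, limma adjusted p = 1.3e-06). Transcriptional regulators among the 15 were PRDM1, the repressor BLIMP-1, HES1, a repressor and Notch target, and the zinc finger protein ZNF267. PRDM1 was at 10.13, 9.95 and 9.49 with FECH siRNA, against 8.20, 7.80 and 7.97 with 5-ALA only (log2 difference 1.87, SE 0.09), and control siRNA also raised it, by 0.42. HES1 was at 10.46, 9.99 and 9.89 with FECH siRNA, against 8.22, 8.33 and 8.54 with 5-ALA only (log2 difference 1.75, SE 0.12), and with control siRNA its difference was 0.06. The rise in HES1 was widest in run 1 and narrowest in run 3. ABI3BP, an extracellular matrix protein, rose by 1.70 with FECH siRNA and by 0.79 with control siRNA, each past the test. The other 6 genes rose by 1.58 to 2.03: the scaffold protein MPP4 (2.03), the tyrosine phosphatase PTPN22 (1.96), the transporter SLC16A6 (1.86), the hedgehog-binding protein HHIP (1.76), TM4SF19 (1.60) and the sialic acid-binding lectin CD22 (1.58). HHIP fell with control siRNA, by a log2 difference of -0.45 (limma adjusted p = 0.0087). SLC16A6 had the widest error of the 15 (SE 0.38), with untreated replicate 3 at 6.19 beside 8.75 and 7.94 on the other untreated arrays. Without that array its adjusted p was 1.8e-07. The noncoding LINC02915, left out by the rule for names and picked after its values were seen, would have ranked between SEMA7A and MMP8 at a log2 difference of 2.26.

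The largest fall was that of CEMIP, which binds hyaluronan and is needed to break it down. It was at 8.87, 9.13 and 8.67 with FECH siRNA, against 11.35, 11.71 and 11.34 with 5-ALA only, 5.98-fold lower (log2 difference -2.58, SE 0.07, limma adjusted p = 2.7e-09). OLR1, the receptor for oxidised low-density lipoprotein, was at 7.77, 7.81 and 7.44 with FECH siRNA, against 9.80, 9.96 and 10.27 with 5-ALA only, 5.06-fold lower (log2 difference -2.34, SE 0.13). LIN7C, a scaffold protein of cell polarity, was at 8.83, 8.79 and 8.70 with FECH siRNA, against 10.93, 10.92 and 11.10 with 5-ALA only, 4.63-fold lower (log2 difference -2.21, SE 0.06). The groups of each gene were separated by more than the whole range within a group. Control siRNA lowered these 3 as well, by smaller log2 differences of -0.36, -0.56 and -0.41, each past the test, and FECH siRNA against control siRNA gave -2.22, -1.78 and -1.80. DNAJB11, a co-chaperone of BiP in the endoplasmic reticulum, was at 7.71, 7.89 and 7.76 with FECH siRNA, against 9.86, 9.93 and 10.07 with 5-ALA only (log2 difference -2.17, SE 0.08), while its control siRNA difference was 0.04. MAD2L1, the spindle checkpoint protein MAD2, was at 7.79, 7.91 and 7.56 with FECH siRNA, against 9.89, 9.68 and 9.83 with 5-ALA only (log2 difference -2.05, SE 0.09), with -0.04 for control siRNA.

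ETFDH, which passes electrons from fatty acid oxidation to coenzyme Q, was at 6.99, 6.82 and 6.41 with FECH siRNA, against 8.69, 8.75 and 8.77 with 5-ALA only (log2 difference -2.00, SE 0.10). COQ10B, a coenzyme Q binding protein, was at 8.48, 8.44 and 8.23 with FECH siRNA, against 10.29, 10.19 and 10.30 with 5-ALA only (log2 difference -1.88, SE 0.07). MPC2, part of the carrier that brings pyruvate into mitochondria, was at 8.32, 8.36 and 7.89 with FECH siRNA, against 10.01, 10.06 and 10.09 with 5-ALA only (log2 difference -1.86, SE 0.09). In these 3 genes the within-run difference was widest in run 3. The actin regulator GMFB fell by 2.17 on the log2 scale. The integrin subunit ITGA6 (-2.05), the glycoprotein-trimming EDEM3 (-2.00), the microtubule protein MAP2 (-1.90) and the lysophospholipid acyltransferase MBOAT2 (-1.88) fell as well. With FECH siRNA the means of ETFDH and MAP2 lay below 7.29.

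**Figure D3:**
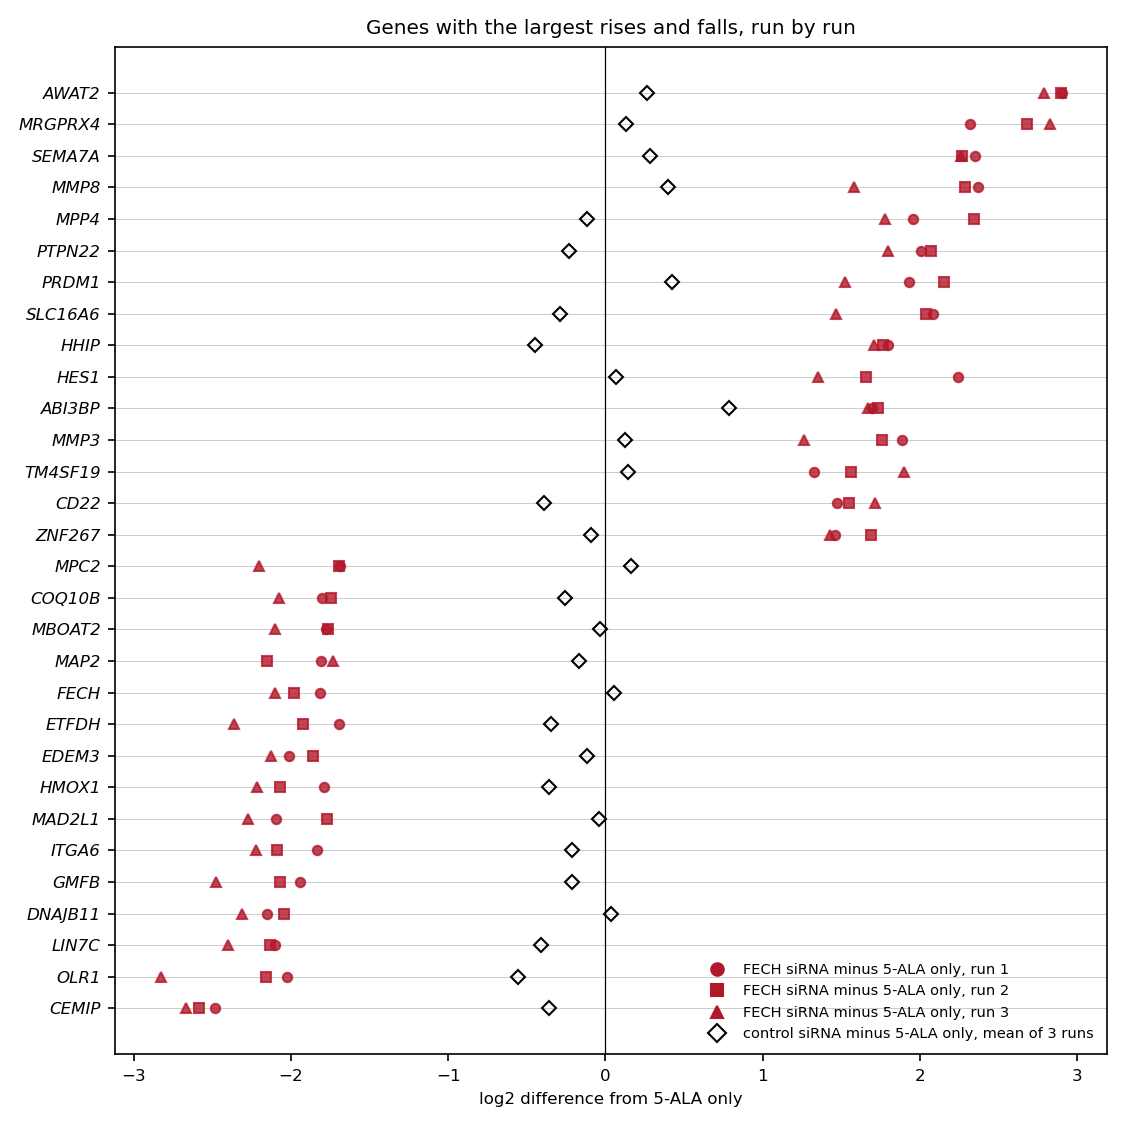
Difference from 5-ALA only on the log2 scale (x axis) for the 15 top rises and the 15 top falls (y axis), with 1 filled marker per run for FECH siRNA and an open diamond for the mean difference of control siRNA. By the rule that picked these genes, all filled markers of a gene lie on 1 side of 0. The diamonds lie between -0.56 (OLR1) and 0.79 (ABI3BP).

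Gene lists were described by how many of their tested members passed and by their median, beside the 45.6% of all genes called and the median of 0.02 over all genes. The list of immediate early genes and feedback regulators of ERK signalling had the highest median, a log2 difference of 0.47. Of its 26 genes 18 rose and 2 fell, 76.9% of the list. The medians within runs 1, 2 and 3 were 0.47, 0.37 and 0.56. DUSP1, a phosphatase of MAP kinases, was at 10.96, 10.84 and 10.86 with FECH siRNA, against 9.44, 9.69 and 9.62 with 5-ALA only, 2.47-fold higher (log2 difference 1.31, SE 0.09, limma adjusted p = 4e-07). The transcription factor EGR2 was at 8.77, 8.76 and 8.74 with FECH siRNA, against 7.58, 7.65 and 7.51 with 5-ALA only (log2 difference 1.18, SE 0.05, limma adjusted p = 2.7e-08). JUN, a subunit of the factor AP-1, was at 11.18, 11.18 and 11.25 with FECH siRNA, against 10.17, 10.10 and 10.28 with 5-ALA only (log2 difference 1.02, SE 0.06, limma adjusted p = 8.5e-08). Arrays of these 3 genes were close within a group and apart between groups. EGR1 was at 11.45, 11.73 and 11.83 with FECH siRNA, against 10.32, 10.78 and 10.38 with 5-ALA only (log2 difference 1.18, SE 0.29, limma adjusted p = 0.0054). Its wide error goes with untreated replicate 3, at 8.90 beside 10.46 and 10.62, and without that array the adjusted p was 3.2e-06. The ERK inhibitors SPRY2 (0.95), SPRY4 (0.90) and SPRED2 (0.50) and the ERK phosphatase DUSP6 (0.78) rose too, as did the AP-1 subunits FOSL1 (0.78), FOSL2 (0.56), FOS (0.50), FOSB (0.47) and JUNB (0.45). The members that fell were the growth factor EREG, by 0.96, and SPRED1, by 0.20. With control siRNA against 5-ALA only 2 of the 26 rose and 4 fell (median -0.08), beside 13.6% of all genes called. In FECH siRNA against control siRNA 18 rose and 3 fell (median 0.43), beside 46.8% of all genes called.

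Promoters of EGR1, a member of this list, and of TM4SF19, one of the 15 largest rises, are shown as examples of a motif for factors that the list itself encodes, and both were chosen after their values were seen. The stretch from 250 bases before to 50 bases after the start of each gene, from RefSeq on GRCh38.p14, was searched on both strands for the AP-1 site TGANTCA and for the CArG box, which binds the serum response factor SRF. Motifs are in capitals.
EGR1 (chr5:138465229-138465528, + strand): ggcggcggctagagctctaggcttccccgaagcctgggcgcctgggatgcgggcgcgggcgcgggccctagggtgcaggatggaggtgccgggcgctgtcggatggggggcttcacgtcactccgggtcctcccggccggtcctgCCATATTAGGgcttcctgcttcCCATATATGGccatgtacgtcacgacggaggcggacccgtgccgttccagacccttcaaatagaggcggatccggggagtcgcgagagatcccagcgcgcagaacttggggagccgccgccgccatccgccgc
TM4SF19 (chr3:196338339-196338638, - strand): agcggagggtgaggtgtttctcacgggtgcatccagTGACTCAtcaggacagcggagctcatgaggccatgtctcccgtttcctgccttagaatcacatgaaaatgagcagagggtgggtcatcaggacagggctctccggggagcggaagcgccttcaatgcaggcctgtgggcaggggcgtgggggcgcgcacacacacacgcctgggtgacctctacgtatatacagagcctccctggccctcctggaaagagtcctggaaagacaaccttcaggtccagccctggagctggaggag
The CArG boxes of EGR1 begin 105 and 83 bases before the start, and the TGANTCA of TM4SF19 begins 214 bases before it. The motif TGANTCA was in 7.76% of 27305 promoters of all kinds, in 4.48% of the 9487 promoters of tested genes, in 11 of 76 promoters (14.5%) of genes that rose over 2-fold and in 8 of 122 (6.56%) of genes that fell over 2-fold. Within the immediate early list it was in 1 of 20 promoters (5%), that of FOSL2. The CArG box was in 1.15% of the promoters of tested genes and in 4 of 76 (5.26%) of genes that rose over 2-fold, which are CYP1A1, EGR1, FLG and RHOJ. Within the immediate early list the CArG box was in 2 of 20 promoters, those of EGR1 and SRF, and the log2 difference of SRF itself was -0.12 (limma adjusted p = 0.0616). These are counts of letters in a window and do not show binding.

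**Figure D4:**
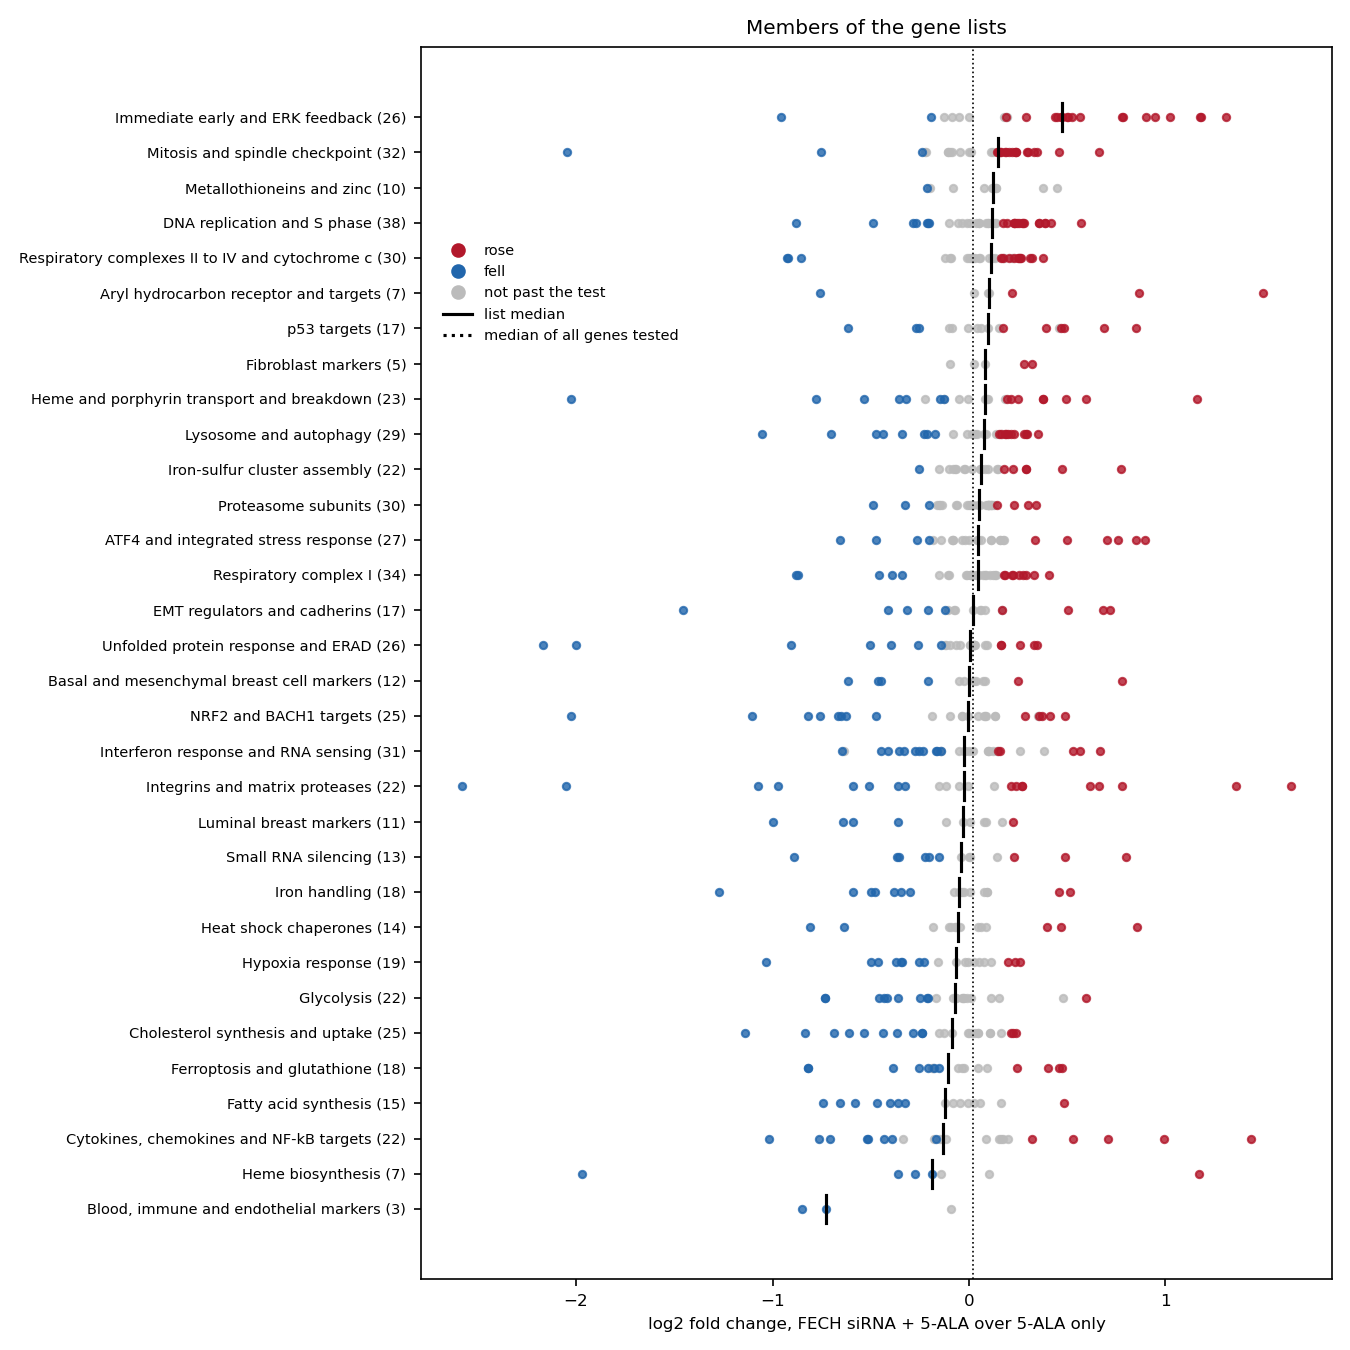
Log2 fold change of FECH siRNA + 5-ALA over 5-ALA only (x axis) for the tested members of 32 gene lists (y axis, number of tested members in brackets), ordered by list median. Red members rose, blue members fell, grey members did not pass, black bars are list medians and the dotted line is the median of all genes, 0.02. The immediate early list has its median at 0.47, and most lists hold members that rose and members that fell.

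Adhesion and matrix genes were called often and split by kind. Of 22 integrins and matrix proteases 9 rose and 8 fell, 77.3% of the list (median log2 difference -0.03). The integrin subunits that fell were ITGA6, ITGB3 (-1.07), ITGB4 (-0.97), ITGAV (-0.59), ITGA2 (-0.51), ITGB5 (-0.36) and ITGB8 (-0.33), and ITGA5, the fibronectin receptor subunit, rose (0.66). ITGA6 and ITGB4 together form a laminin receptor. ITGA6 was at 10.01, 9.79 and 9.64 with FECH siRNA, against 11.85, 11.88 and 11.86 with 5-ALA only. For ITGB3 and ITGB8 the control siRNA difference from 5-ALA only was positive, 0.41 and 0.79. The metalloproteases MMP1 (1.36), MMP3 (1.64), MMP9 (0.62) and MMP14 (0.27) rose, and so did their inhibitors TIMP2 (0.27) and TIMP3 (0.21) and the hyaluronan synthase HAS2 (0.78). MMP9 rose by 0.68 with control siRNA as well, and FECH siRNA against control siRNA was -0.06 for it (limma adjusted p = 0.503). MMP1, the interstitial collagenase, was at 12.83, 12.92 and 12.75 with FECH siRNA, against 11.41, 11.33 and 11.69 with 5-ALA only, 2.56-fold higher (SE 0.10, limma adjusted p = 1.1e-06).

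Among 17 regulators of epithelial-mesenchymal transition and cadherins 4 rose and 5 fell, 52.9% of the list (median log2 difference 0.02). TGFBR1, the type I receptor for TGF-beta, was at 9.33, 9.35 and 9.30 with FECH siRNA, against 10.76, 10.80 and 10.79 with 5-ALA only, 2.74-fold lower (log2 difference -1.46, SE 0.06, limma adjusted p = 1.8e-08). The spread within each group was small beside that gap. The ligands TGFB1 (-0.41) and TGFB2 (-0.32) and the target TGFBI (-0.21) fell. N-cadherin, CDH2, rose by 0.72 and the repressor SNAI2 by 0.68, at 12.82, 12.80 and 12.81 with FECH siRNA, against 12.12, 12.21 and 12.06 with 5-ALA only. SNAI2 fell with control siRNA (log2 difference -0.27, limma adjusted p = 0.0063). SNAI1 rose by 0.50 over a 5-ALA only mean below 7.29.

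Of 25 targets of NRF2 and BACH1 5 rose and 8 fell, 52% of the list (median log2 difference -0.01). GCLM, the modifier subunit for glutathione synthesis, was at 8.70, 8.39 and 8.56 with FECH siRNA, against 9.44, 9.27 and 9.40 with 5-ALA only, 1.77-fold lower (log2 difference -0.82, SE 0.08, limma adjusted p = 8.1e-06). No FECH siRNA array reached the 5-ALA only arrays. The quinone reductase NQO1 fell by 0.76, EPHX1 by 0.66, the thioredoxin reductase TXNRD1 by 0.65 and the exporter ABCC3 by 0.63. PGD, an enzyme of the pentose phosphate pathway, rose by 0.41, and AKR1C3 by 0.49. GCLM and TXNRD1 fell with control siRNA too, by 0.28 and 0.32.

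Lists of stress genes held members of both directions. In the ATF4 and integrated stress list, 6 of 27 genes rose and 4 fell (median log2 difference 0.05), 37% of the list beside 45.6% of all genes. That lower share depends on untreated replicate 3. Without that array 8 of the 27 rose and 6 fell, beside 5958 of all 12151 genes past the test. The list was then not called less often than all genes. With control siRNA against 5-ALA only 6 of the 27 fell and 0 rose (median -0.23), beside 13.6% of all genes called. In FECH siRNA against control siRNA 14 rose and 2 fell (median 0.30), beside 46.8% of all genes called. The regulators DDIT3 (0.76), ATF3 (0.70) and CEBPB (0.33) and the eIF2-alpha phosphatase subunit PPP1R15A (0.89) rose, as did SESN2 (0.85). The regulator ATF5 (-0.21), the asparagine synthetase ASNS (-0.65), the amino acid transporter SLC7A1 (-0.48) and the tRNA exporter XPOT (-0.27) fell, and ASNS and XPOT fell with control siRNA as well (-0.66 and -0.57). The 5-ALA only mean of ATF3 was below 7.29. The calls of SESN2 (adjusted p = 0.0433), DDIT3 (0.0298) and PPP1R15A (0.0112) are weak: they ended under 11, 7 and 5 of 20 alternatives. For all 3, untreated replicate 3 stood low, and without it the adjusted p was 2.1e-07, 4.8e-06 and 7.1e-07. Of 26 genes of the unfolded protein response and of degradation from the endoplasmic reticulum 5 rose and 7 fell, 46.2% of the list (median 0.01). The 3 EDEM proteins, which trim and hand over misfolded glycoproteins, all fell: EDEM3 by 2.00, EDEM2 by 0.91 and EDEM1 by 0.50, the last with a fall by 0.46 under control siRNA. Of 14 heat shock chaperones 5 passed the test, 35.7% of the list beside 45.6% of all genes (median -0.06). HSPB8 (0.86), HSPA2 (0.47, over a 5-ALA only mean below 7.29) and BAG3 (0.40) rose, and HSPH1 (-0.81) and DNAJA1 (-0.64) fell.

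Of 17 p53 targets 6 rose and 3 fell, 52.9% of the list (median log2 difference 0.10), in a cell line known to carry a mutant p53. AEN, a nuclease, rose by 0.69 and TP53I3 by 0.49, whereas TP53INP1 fell by 0.61 and CDKN1A, the kinase inhibitor p21, by 0.27. Of 30 proteasome subunits 4 rose and 3 fell, 23.3% of the list. PSMB2 fell by 0.49, PSMD12 by 0.32 and PSMD6 by 0.21, while PSMD11 rose by 0.34 and PSMD3 by 0.30. The PSMD12 call ended without run 1 (adjusted p = 0.0705). Of 10 metallothioneins and zinc genes 1 passed, the regulator MTF1, which fell by 0.21, a call that ended without the pairing by run or without run 2 (adjusted p of 0.0521 and 0.0543). Of 7 genes of the aryl hydrocarbon receptor pathway 3 rose and 1 fell, 57.1% of the list. CYP1A1, its best known target, was at 11.77, 11.82 and 11.51 with FECH siRNA, against 10.29, 10.22 and 10.08 with 5-ALA only, a log2 difference of 1.5 (SE 0.56, limma adjusted p = 0.0472). The groups were far apart, and the wide error goes with untreated replicate 3, at 6.79 beside 10.40 and 10.12. The CYP1A1 call ended under 11 of 20 alternatives, with adjusted p up to 0.191, and without that array the adjusted p was 1.9e-08. TIPARP, another target, rose by 0.87 (limma adjusted p = 0.00077), and ARNT, the partner of the receptor, rose by 0.22, beside 0.23 with control siRNA, a call that ended without run 1 (adjusted p = 0.0552).

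Among called genes of lipid and sugar metabolism falls outnumbered rises, with small list medians of -0.12 to -0.07 beside 0.02 over all genes. Of 15 fatty acid synthesis genes 1 rose and 7 fell, 53.3% of the list beside 45.6% of all genes (median log2 difference -0.12). SCD, the stearoyl-CoA desaturase, was at 12.18, 12.34 and 12.39 with FECH siRNA, against 13.04, 13.08 and 13.01 with 5-ALA only (log2 difference -0.74, SE 0.06, limma adjusted p = 3.3e-06). ACACA (-0.66), ELOVL7 (-0.58), ACSS2 (-0.47), FASN (-0.40), FADS2 (-0.36) and the regulator SREBF1 (-0.32) fell, and ELOVL1 rose (0.48). Of 25 genes of cholesterol synthesis and uptake 3 rose and 10 fell, 52% of the list (median -0.09). STARD4, which carries sterol between membranes, was at 8.35, 8.30 and 8.58 with FECH siRNA, against 9.57, 9.42 and 9.66 with 5-ALA only, 2.2-fold lower (log2 difference -1.14, SE 0.07, limma adjusted p = 2.3e-07). SQLE (-0.83), IDI1 (-0.61), CYP51A1 (-0.54) and the regulator SREBF2 (-0.44) fell. With control siRNA against 5-ALA only 5 genes of that list rose and 1 fell (median 0.10), beside 6.07% and 7.53% of all genes. Of 18 genes of ferroptosis and glutathione 4 rose and 7 fell, 61.1% of the list. Among those that fell was ACSL4, which activates polyunsaturated fatty acids (-0.82, beside -0.37 with control siRNA).

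Of 22 glycolysis genes 1 rose and 9 fell, 45.5% of the list beside 45.6% of all genes (median log2 difference -0.07). HK2, the hexokinase bound to mitochondria, rose by 0.60, opposite to its fall by 0.58 with control siRNA. PFKFB3, whose product is the main activator of phosphofructokinase, was at 8.33, 8.41 and 8.41 with FECH siRNA, against 8.95, 9.25 and 9.15 with 5-ALA only (log2 difference -0.73, SE 0.12, limma adjusted p = 0.0004). ALDOC fell by 0.73, PFKFB4 by 0.46, PFKM by 0.43 and LDHA by 0.42. Of 19 hypoxia response genes 3 rose and 8 fell, 57.9% of the list (median -0.06). P4HA1, a collagen prolyl hydroxylase, was at 9.55, 9.38 and 9.25 with FECH siRNA, against 10.39, 10.45 and 10.44 with 5-ALA only, 2.05-fold lower (log2 difference -1.03, SE 0.10, limma adjusted p = 8.2e-06). BNIP3 fell by 0.50, LOX by 0.46 and CA12 by 0.37, the last beside a fall by 0.45 with control siRNA and with a call that ended without run 2 (adjusted p = 0.0546).

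Of 34 respiratory complex I genes 9 rose and 5 fell, 41.2% of the list beside 45.6% of all genes (median log2 difference 0.05), with no called rise above 0.41 (NDUFS7). NDUFV2, an iron-sulfur subunit, was at 9.55, 9.50 and 9.46 with FECH siRNA, against 10.41, 10.26 and 10.48 with 5-ALA only (log2 difference -0.88, SE 0.06, limma adjusted p = 9e-07). NDUFC2 fell by 0.87, NDUFS4 by 0.39 and NDUFS1 by 0.34. Of 30 genes of complexes II to IV and cytochrome c 11 rose and 3 fell, 46.7% of the list (median 0.11). The 3 that fell were UQCR11, by 0.92, and the assembly factors SCO1, by 0.92, and COX15, by 0.86. COX15 makes heme A, the heme of cytochrome c oxidase, from heme O. It was at 8.16, 8.07 and 8.02 with FECH siRNA, against 8.87, 8.90 and 9.05 with 5-ALA only (SE 0.07, limma adjusted p = 1.3e-06). COX10, which makes heme O, rose by 0.26. The median of the complexes II to IV list was 0.18 in run 1, 0.16 in run 2 and 0.01 in run 3.

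Cell cycle genes rose in number but by small amounts. Of 32 mitosis and spindle checkpoint genes 18 rose and 3 fell, 65.6% of the list (median log2 difference 0.15), and all rises were at most 0.66. AURKB, the kinase of the chromosomal passenger complex, was at 11.33, 11.43 and 11.48 with FECH siRNA, against 10.80, 10.64 and 10.83 with 5-ALA only (log2 difference 0.66, SE 0.06, limma adjusted p = 2.8e-06). KIF20A rose by 0.46 and the proliferation marker MKI67 by 0.30. The falls were MAD2L1, by 2.05, the midbody kinesin KIF23, by 0.76, and BUB1B, by 0.24. Of 38 genes of DNA replication and S phase 16 rose and 7 fell, 60.5% of the list (median 0.12). CDC25A rose by 0.57, beside 0.49 with control siRNA, and GINS1 by 0.42, while cyclin E2, CCNE2, fell by 0.88 and the thymidylate synthase TYMS by 0.49. The list medians were 0.19 and 0.14 in run 1, 0.18 and 0.20 in run 2, and 0.02 and 0.00 in run 3, for mitosis and replication in that order.

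Innate immune genes moved in both directions. Of 31 interferon response and RNA sensing genes 5 rose and 11 fell, 51.6% of the list (median log2 difference -0.02). With control siRNA against 5-ALA only 7 of the 31 rose and 0 fell, beside 6.07% and 7.53% of all genes. OAS2 rose by 0.67 with FECH siRNA and by 0.35 with control siRNA, OAS3 by 0.57 with FECH siRNA and IFIT3 by 0.53, the last a call that ended without run 2 (adjusted p = 0.066). IFITM1 was at 10.23, 10.43 and 10.02 with FECH siRNA, against 10.80, 11.07 and 10.75 with 5-ALA only (log2 difference -0.65, SE 0.06, limma adjusted p = 5.2e-06), and rose by 0.21 with control siRNA. The transcription factor IRF3 fell by 0.41. Of 22 cytokines, chemokines and NF-kB targets 5 rose and 8 fell, 59.1% of the list (median -0.13). The cytokine IL24 was at 11.71, 11.42 and 11.75 with FECH siRNA, against 10.18, 9.74 and 10.67 with 5-ALA only, 2.7-fold higher (log2 difference 1.44, SE 0.19, limma adjusted p = 8.1e-05). TNFAIP3, the NF-kB inhibitor A20, rose by 0.99 and the cytokine LIF by 0.71. TNFAIP2 fell by 1.02, the death ligand TNFSF10 (TRAIL) by 0.77, IL6 by 0.71 and CXCL8 by 0.52.

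Of the machinery that loads and processes small RNAs 9 of 13 genes passed the test, 3 that rose and 6 that fell. That is 69.2% of the list beside 45.6% of all genes, with a median log2 difference of -0.04. With control siRNA against 5-ALA only 1 rose and 1 fell, beside 13.6% of all genes called. DICER1, which cuts small RNA precursors, was at 10.05, 10.04 and 10.16 with FECH siRNA, against 10.95, 10.96 and 11.01 with 5-ALA only, 1.86-fold lower (log2 difference -0.89, SE 0.05, limma adjusted p = 2.1e-07). With control siRNA DICER1 rose against 5-ALA only, by 0.35 (limma adjusted p = 0.0022). TNRC6A, an Argonaute partner, rose by 0.80 and TNRC6C by 0.49, while AGO2 fell by 0.15. Of 29 lysosome and autophagy genes 11 rose and 8 fell, 65.5% of the list (median log2 difference 0.07). The rises were at most 0.35 (CTSL). Among genes of the proton pump ATP6V1C1 (-1.05) and ATP6V1B2 (-0.47) fell, with control siRNA differences of -0.42 and -0.21, while ATP6V1H (0.21) and ATP6AP1 (0.28) rose and ATP6V1A had a difference of -0.01. The sialidase NEU1 fell by 0.70 and rose by 0.48 with control siRNA.

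Markers of cell identity passed the test about as often as all genes (45.6%). Of 11 luminal markers tested 1 rose and 4 fell, 45.5% of the list. The summed linear signal of all 14 luminal markers with a probe set was 9173 to 9524 with FECH siRNA and 11589 to 12897 with 5-ALA only. The keratin KRT18 was at 10.03, 10.31 and 10.22 with FECH siRNA, against 11.08, 11.23 and 11.25 with 5-ALA only (log2 difference -0.998, SE 0.06, limma adjusted p = 2.2e-07), and KRT19 (-0.64), KRT8 (-0.59) and EPCAM (-0.36) fell as well. Of 12 basal and mesenchymal markers 2 rose and 4 fell, 50% of the list. FOSL1 rose by 0.78, and MSN fell by 0.61, LOX by 0.46 and S100A4 by 0.45, the last a call that ended without run 2 (adjusted p = 0.059). Of the fibroblast markers 3 of 10 were above 7.29 on all 6 arrays. COL1A1 rose by 0.32 and LUM by 0.28, beside 0.29 and 0.63 with control siRNA, and the LUM call ended under 7 of 20 alternatives. Of 12 blood, immune and endothelial markers with a probe set, 2 were above 7.29 on all 6 arrays. CD14 fell by 0.73 and PECAM1 by 0.85, where the FECH siRNA mean of PECAM1 was below 7.29. The part of these changes in the other results was not tested.

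The control siRNA arrays show how the same genes stood after exposure to another siRNA at the same dose and with the same 5-ALA. Both comparisons use the same 5-ALA only arrays, so their values are set side by side. The first 6 genes were picked as those with the largest control siRNA change among genes past the test in the same direction in both, so how far their FECH siRNA differences stand from those of control siRNA follows in part from that choice. SMIM15 was at 9.35, 9.30 and 9.38 with FECH siRNA and at 8.51, 8.07 and 8.19 with control siRNA, against 9.63, 9.44 and 9.72 with 5-ALA only. Its log2 differences from 5-ALA only were -0.25 with FECH siRNA and -1.34 with control siRNA, and the direct comparison of FECH siRNA with control siRNA gave 1.08 (limma adjusted p = 5.4e-07). BPNT2, a Golgi phosphatase, had differences of -0.70 and -1.32, MINPP1, an inositol phosphatase, -0.56 and -1.02, SLC10A5 -0.42 and -0.996, and the sphingomyelin synthase SGMS2 -0.47 and -0.90, each with FECH siRNA first. CPA4, a carboxypeptidase, was lower with FECH siRNA, at -1.14 beside -0.90 with control siRNA, and the direct comparison gave -0.23 (limma adjusted p = 0.0486). The FECH siRNA calls of SMIM15 and SLC10A5 ended under 5 and 7 of 20 alternatives.

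A second set holds the largest FECH siRNA changes among genes past the test with control siRNA within 0.1 of 5-ALA only. It is made up of FECH, HES1, DNAJB11, MAD2L1, MBOAT2 and CFB. By that choice their differences from control siRNA nearly repeat those from 5-ALA only and are no separate support. CFB, complement factor B, was at 10.22, 10.31 and 9.88 with FECH siRNA and at 11.90, 12.02 and 11.42 with control siRNA, against 11.81, 11.95 and 11.56 with 5-ALA only. The FECH siRNA arrays lay below all others, with log2 differences of -1.64 from 5-ALA only and -1.65 from control siRNA (SE 0.07, limma adjusted p of 1.7e-08 and 1.9e-08). In the last set the siRNA groups went opposite ways from 5-ALA only, each past the test. GPR65, a proton-sensing receptor, was at 9.69, 9.46 and 9.71 with FECH siRNA and at 7.59, 7.34 and 7.79 with control siRNA, against 8.06, 8.02 and 8.93 with 5-ALA only (log2 differences 1.28 and -0.76). MMP1 stood at 10.77, 10.62 and 11.09 with control siRNA, a log2 difference of -0.65 from 5-ALA only beside 1.36 with FECH siRNA. TMEM156 had 0.79 with FECH siRNA and -0.98 with control siRNA, the homeobox factor HOXB9 1.03 and -0.68, and PLEK2 0.87 and -0.67. FPR1, the formyl peptide receptor, went the other way, at -0.88 with FECH siRNA, where its mean was below 7.29, and 0.69 with control siRNA. FECH siRNA against control siRNA, wider for these 6 genes by the way they were chosen, gave 2.01 for MMP1 (limma adjusted p = 5.1e-08).

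**Figure D5:**
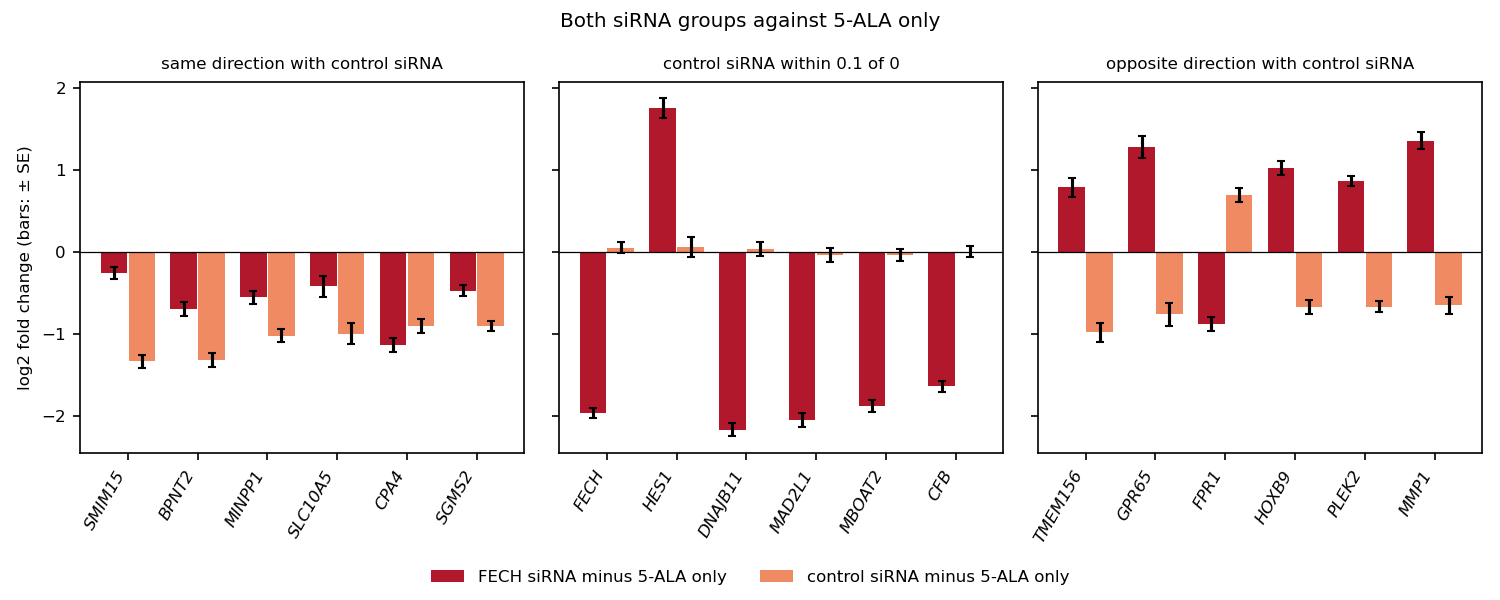
Log2 fold change (y axis, bars with ± SE from limma, 3 arrays a group) from 5-ALA only for FECH siRNA (red) and control siRNA (orange), in 3 sets of 6 genes (x axis). The left set fell with both siRNAs, the middle set has control siRNA within 0.1 of 0, and the right set moved in opposite directions, such as MMP1 at 1.36 with FECH siRNA and -0.65 with control siRNA.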

How the data were processed

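Total RNA of MDA-MB-231 cells was labelled with biotin and hybridised to arrays with 28869 probe sets. Per the submitters' processing notes, the deposited signal intensity is the output of RMA as run in oligo (which versions and which genome build is not given in the sources used here), and the values are linear, from 21.0 to 23641. In RMA the arrays are brought to a common distribution, so a change of total mRNA cannot be seen. Their log2 (pseudocount 0) was used with no further normalization. The deposited workbook and value table differ by at most 5e-05, and 12 further per-sample columns were not used.

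Of the probe sets, 19937 carry 1 gene symbol (19309 brought to current symbols by Entrez number), 2191 several and 6741 none. A probe set had to exceed 7.29, the overall median, on at least 3 of 12 arrays, and each gene was represented by its brightest such probe set, giving 12151 genes. The tables used carry no detection calls.

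Limma 3.58.1 in R 4.3.3 (reading with the data.table package, 1.17.8) fitted 1 mean per group over all 12 arrays with the run of sample numbers as a block, eBayes at its defaults, two-sided p, Benjamini-Hochberg over all genes, threshold 0.05. The pairing comes from the sample numbers in the titles: after group means were removed, FECH siRNA and 5-ALA only arrays of the same run correlated at 0.293 to 0.421 and those of different runs at -0.282 to -0.0445. With group means removed, the deviations of a group's 3 arrays sum to 0. Positive values within runs thus force some negative ones between runs, so the 2 ranges are not independent. Tested on simulated data for this comparison, the fit recovered 88 of 100 genes changed by 0.5 on the log2 scale and 100 of 100 changed by 1, and called 10 unchanged genes. No other genes of the 12151 were changed, and the noise was drawn independently for each gene. In the data 45.6% of genes were called, so the simulated counts need not hold at that share. Python used numpy 2.4.6, pandas 2.3.3, scipy 1.17.1 and matplotlib 3.10.9.

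Genes were named by a rule: FECH, the heme biosynthesis genes, HMOX1, BACH1, TFRC and ABCG2, then the 15 largest rises and 15 largest falls past the test without overlap between groups (noncoding and provisional names left out), up to 4 called members of each list, and 3 sets of 6 genes by their control siRNA change. Further list members are given by their calls. The 32 lists hold 713 symbols, of which 688 are on the array and 626 passed the filter. The members, lists and rule were chosen with earlier results of these data known. Alternatives (20, of which 16 planned) covered the block, the arrays fitted, the filter, the variance model, array weights, scaling, an offset of 32, the probe set choice and leaving out arrays or runs. A few genes of the lists are not reported here by name.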

Additional observations from a re-analysis of the deposited data

Results flagged for a closer look

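Probe sets without a single gene symbol were tested apart from the genes of the report. Of 1123 probe sets above the filter level with no symbol, 82 passed the limma test in FECH siRNA against 5-ALA only, 37 that rose and 45 that fell, and 4 passed in control siRNA against 5-ALA only. Of 1286 with several symbols, 326 passed in FECH siRNA against 5-ALA only, 196 that rose and 130 that fell, and 36 passed in control siRNA against 5-ALA only. In both classes the share past the test in FECH siRNA against 5-ALA only was below the 45.6% of the genes tested. In control siRNA against 5-ALA only it was below the 13.6% of the genes tested. The shares are not like for like. The p-values of these probe sets were adjusted among themselves, and every probe set above the filter was kept. These probe sets are signals outside the genes tested, and they are given here as counts only.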

How the results depend on the processing

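The count of 5545 genes for FECH siRNA against 5-ALA only lay between 3824 and 6407 under the 20 alternatives, and the FECH difference between -2.05 and -1.66 on the log2 scale, past the test each time. Without the replicate block the count was 4495, without single FECH siRNA or 5-ALA only arrays 4658 to 4981, 5958 without untreated replicate 3, and 3824 without run 2. For control siRNA against 5-ALA only, 1652 genes became 753 with no replicate block, 2584 with array weights, 821 to 2186 without single arrays, 586 without run 1 and 304 without run 2. For FECH siRNA against control siRNA, 5683 became 3698 without run 2. Of the named genes, CPOX, CYP1A1, LUM, MTF1, SESN2, SLC10A5, SMIM15 and UROS lost their call without the block. Of 152 named genes past the test, 18 lost their call under some alternative, in 70 of the gene and alternative pairs, and 2 of the 3 others gained one. No named gene turned its direction. The runs left out and the fit without untreated replicate 3 were chosen after the data had been seen. The cause of these changes was not tested, though leaving out arrays leaves fewer samples. With 3 arrays a group and no detection values, signals below 7.29 carry little weight.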
